A study of Rattus norvegicus with 10 samples.

Results

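Cytochrome P450 and conjugation enzymes were taken as all genes of the array whose symbol placed them in P450 families 1 to 4 or among the glutathione S-transferases (Gst), UDP-glycosyltransferases (Ugt) and sulfotransferases (Sult), with *Cyp1a1* and *Cyp1b1* left out. Only probe sets annotated to a single gene symbol were used, and each gene was represented by its probe set with the highest mean over the 10 arrays. This gave 84 genes from 92 probe sets, among 14217 genes with a single symbol on the array, made up of 40 P450 genes, 21 glutathione S-transferases, 9 UDP-glycosyltransferases and 14 sulfotransferases. Total RNA from whole mammary glands was compared between 5 female ACI rats (strain ACI/SegHsd) and 5 BN rats (Brown Norway), with 1 array per rat. All 10 rats carried subcutaneous implants that released 17β-estradiol (E2) from 9 weeks of age for 12 weeks, so E2 treatment, its duration and the tissue were shared by both strains, and no untreated rats were analysed here. ACI rats are susceptible and BN rats resistant to E2-induced mammary cancer, and the glands were taken before palpable tumors develop. The ACI and BN samples were deposited separately, and a difference between deposits cannot be told apart from one between strains.

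Cytochrome P450 enzymes are heme proteins, mostly of the endoplasmic reticulum, that insert oxygen into fatty acids, steroids and foreign compounds with electrons supplied by P450 reductase. The conjugation enzymes then attach glutathione (Gst), glucuronic acid (Ugt) or sulfate (Sult) to such products, or to the parent compound, and the conjugates are exported. Most of these genes are known for expression in the liver, but in the mammary gland the same families handle estrogens and their catechol and quinone metabolites as well as products of lipid peroxidation. The aryl hydrocarbon receptor (AHR) and the oxidative stress factor NRF2, encoded by *Nfe2l2*, are known activators of several members.

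The promoters of the members were examined for the short elements that these regulators recognise. RefSeq promoter sequence on the GRCr8 rat assembly, the 250 bases before the annotated start, was matched by gene ID for 72 of the 84 members. GCGTG, the core of the element bound by AHR, was found on either strand in 25.9% of all 33469 promoters and in 14 of the 72 members (19.4%). TGACNNNGC, the core of the antioxidant element, was found in 10.1% of all promoters and in 8 of the 72 members (11.1%). Among members that differed between strains, GCGTG occurred in 2 of 6 that were higher in ACI (*Gsta4* and *Cyp2t1*) and in 0 of 5 that were higher in BN. TGACNNNGC occurred in 0 of 6 higher in ACI and in 2 of 5 higher in BN (*Cyp4b1* and *Cyp2s1*). Counts this small do not show a difference between the directions. A match describes the letters of this window only. These 4 promoters are shown because they are the ones of called members that held a match, and *Cyp2s1* among them was called only at the edge of detection. They lie at chr8:87947015-87947264 (*Gsta4*, plus strand), chr1:91575260-91575509 (*Cyp2t1*, plus strand), chr5:134393117-134393366 (*Cyp4b1*, minus strand) and chr1:90453074-90453323 (*Cyp2s1*, minus strand). Each is printed 5′ to 3′ on the strand of its gene, with matches in capitals (GCGTG or its reverse complement CACGC in the upper pair, TGACNNNGC in the lower pair, no matches overlapping).
Gsta4: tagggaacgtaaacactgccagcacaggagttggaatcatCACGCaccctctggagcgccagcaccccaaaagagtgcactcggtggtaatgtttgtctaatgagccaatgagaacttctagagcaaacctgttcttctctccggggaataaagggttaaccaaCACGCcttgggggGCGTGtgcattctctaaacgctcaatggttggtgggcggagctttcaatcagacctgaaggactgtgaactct
Cyp2t1: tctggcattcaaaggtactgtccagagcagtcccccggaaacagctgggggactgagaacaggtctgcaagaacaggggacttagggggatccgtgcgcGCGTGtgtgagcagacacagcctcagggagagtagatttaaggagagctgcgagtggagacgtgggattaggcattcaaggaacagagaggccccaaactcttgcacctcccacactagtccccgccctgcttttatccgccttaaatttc
Cyp4b1: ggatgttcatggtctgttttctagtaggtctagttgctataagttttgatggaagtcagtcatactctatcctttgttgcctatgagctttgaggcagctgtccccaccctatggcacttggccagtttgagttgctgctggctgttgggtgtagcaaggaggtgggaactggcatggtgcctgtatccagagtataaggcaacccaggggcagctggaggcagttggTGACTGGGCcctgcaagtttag
Cyp2s1: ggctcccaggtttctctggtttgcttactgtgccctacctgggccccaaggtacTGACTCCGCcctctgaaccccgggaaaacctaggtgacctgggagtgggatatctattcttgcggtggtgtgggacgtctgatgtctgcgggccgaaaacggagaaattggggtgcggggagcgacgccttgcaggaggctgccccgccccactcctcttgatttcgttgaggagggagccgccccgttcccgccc
*Gsta4* held 3 matches to GCGTG, and *Cyp2t1* held 1, which began 151 bases upstream of the start. The single match to TGACNNNGC began 22 bases upstream in *Cyp4b1* and 196 bases upstream in *Cyp2s1*.

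Values are log2 expression, and a probe set was taken to lie near background in a strain when all 5 rats of that strain read under 4. By this rule 56 of the 84 members (66.7%) were near background in both strains, against 29.0% of all genes. The share differed widely between enzyme classes. Near background in both strains were 30 of 40 P450 genes, 6 of 21 glutathione S-transferases, 11 of 14 sulfotransferases and all 9 UDP-glycosyltransferases with a probe set of their own. Of the 84 members, 37 did not vary by more than 0.02 over the 10 arrays, and 33 stood at the lowest value of the data, 2.23, on every array. Genes near background in both strains included *Cyp1a2*, all 4 *Cyp3a* genes, all *Cyp2a*, *Cyp2b*, *Cyp2c* and *Cyp4a* genes among the members, and the hydroxysteroid sulfotransferases *Sult2a1*, *Sult2a2* and *Sult2a6*. *Sult1e1*, the estrogen sulfotransferase, read 2.23 in all 5 ACI rats and in 4 of 5 BN rats, with 2.43 in BN rat 4. Of the members near background in both strains, *Cyp4f5* came closest to 4, with 3.88 and 3.93 in BN rats 4 and 5, against 2.38 to 2.77 in ACI rats and 2.72 to 3.02 in BN rats 1 to 3.

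**Figure D1:**
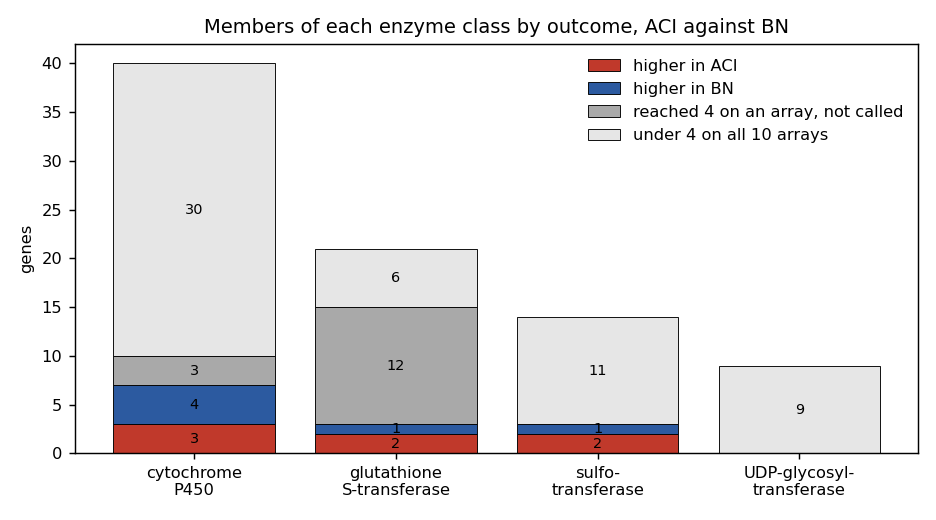
Stacked bars give the number of genes (vertical axis) in each enzyme class that were higher in ACI, higher in BN, at a log2 value of 4 or more on some array without being called, or under 4 on all 10 arrays. The lightest block makes up 30 of 40 P450 genes and all 9 UDP-glycosyltransferases, but only 6 of 21 glutathione S-transferases.

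Strain differences were tested with limma across all 31042 non-control probe sets, and a gene was called when its adjusted p was under 0.05. Of the 84 members 13 were called (15.5%), against 17.4% of all genes. Among the 13, 7 were higher in ACI, against 8.29% of all genes called in that direction, and 6 were higher in BN, against 9.12%. Of all probe sets, 12.7% were called. Among genes with a mean of at least 4 over all arrays, 12 of 27 members (44.4%) and 24.7% of all such genes were called, a count over members that passed a filter and given as a description only. The median log2 fold change (ACI minus BN) over the 84 members was 0.0, as it was over all genes. Since 56 of the 84 members were near background in both strains, this median does not describe the others. Values of the strains did not overlap for 11 members, all of them called, against 16.6% of all genes. By class, 7 P450 genes were called (3 higher in ACI and 4 higher in BN), as were 3 glutathione S-transferases (2 higher in ACI and 1 in BN) and 3 sulfotransferases (2 higher in ACI and 1 in BN). No UDP-glycosyltransferase was called, and none reached an unadjusted p under 0.05. At an unadjusted p under 0.05 there were 18 of the 84 members, against 7740 of all 31042 probe sets. They were the 13 called and *Cyp4f5*, *Gstcd*, *Gstm4*, *Gsto1* and *Gstt2*.

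The glands differed in the markers of several cell types, which stand here because whole tissue was measured. The mean over 12 luminal epithelial markers was 10.27 to 10.66 in ACI rats and 9.24 to 10.17 in BN rats, with 5 of the 12 called, all higher in ACI. *Krt7* of this list ran the other way without a call, at 5.77 in ACI and 7.30 in BN (log2 fold change -1.53, adjusted p = 0.0712). The basal and myoepithelial list overlapped (8.31 to 8.74 in ACI rats and 7.81 to 8.45 in BN rats), with only *Cnn1* of 7 markers called, higher in ACI. Means of the macrophage list were 8.19 to 8.80 in ACI rats and 9.20 to 9.89 in BN rats (5 of 9 markers called, all higher in BN). *C1qb* (log2 fold change 1.2, adjusted p = 0.0502) and *C1qa* (0.11, 0.962) of this list ran the other way without a call. Means of the endothelial list were 6.52 to 7.14 in ACI rats and 7.68 to 8.48 in BN rats (3 of 6 higher in BN). The B and plasma cell list lay at 3.03 to 3.23 in ACI rats and 5.19 to 9.82 in BN rats, with all 5 measured markers higher in BN. The T cell list lay at 4.75 to 5.26 in ACI rats and 5.40 to 8.15 in BN rats (5 of 8 called, all higher in BN). *Cd4* (log2 fold change 0.86, adjusted p = 0.207) and *Cd8a* (0.1, 0.728) of the T cell list ran towards ACI without a call. Adipocyte lists overlapped (9.66 to 10.76 in ACI rats and 10.02 to 11.11 in BN rats, with only *Adipoq* of 10 markers called, higher in BN), as did muscle lists (6.93 to 11.85 in ACI rats and 3.19 to 10.66 in BN rats, none of 8 called). Of 8 liver markers 5 were near background in both strains, with means of at most 2.30 (*Apoa1*, *Apoa2*, *Ttr*, *Fgb* and *Ahsg*), whereas *Alb* averaged 8.42 in ACI and 12.21 in BN (log2 fold change -3.78, adjusted p = 0.000123), *Serpina1* 5.27 in ACI and 2.61 in BN (2.66, adjusted p = 8.03e-05) and *Fgg* 6.07 in ACI and 4.07 in BN (2.0, adjusted p = 0.0897). In such tissue, fewer cells of a type and less RNA per cell cannot be told apart, and the part of these lists in the results that follow was not tested.

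The largest strain difference of any member belonged to *Gsta4*, the alpha-class transferase known for conjugating hydroxynonenal, a reactive product of lipid peroxidation. *Gsta4* read 12.53, 12.04, 12.18, 12.57 and 12.65 in ACI rats 1 to 5, against 8.38, 8.90, 8.75, 8.70 and 7.88 in BN rats 1 to 5. Every ACI rat lay more than 3 log2 units above every BN rat. The means were 12.39 ± 0.267 in ACI and 8.52 ± 0.406 in BN (SD, n = 5 each), a log2 fold change of 3.87 (SE 0.212, limma adjusted p = 2.88e-05), which is 14.6-fold higher in ACI.

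*Gsta1*, another alpha-class enzyme and one of the major glutathione transferases of rat liver, changed in the same direction. It read 12.98, 12.86, 12.87, 12.93 and 12.80 in ACI rats, against 10.42, 11.01, 10.82, 10.53 and 9.85 in BN rats. The ACI values lay within a narrow band (12.89 ± 0.0691) and the BN values were spread more widely (10.53 ± 0.444), without overlap. The log2 fold change was 2.36 (SE 0.196, adjusted p = 0.000205), or 5.14-fold. *Gsta1* lies next to *Gsta3* in the order of protein-coding genes on chromosome 9, and *Gsta3* was near background in both strains, with its highest value at 3.39 in BN rat 1. A probe set shared by *Gsta5* and *Gsta2*, which is not a member because it names several genes, read 3.77 in all ACI rats and in 3 BN rats, 3.78 in BN rat 4 and 4.96 in BN rat 5. Thus 2 of the 4 alpha-class genes with a probe set of their own were called, both higher in ACI, and the other two were near background.

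Of the 3 theta-class transferases, only *Gstt3* was called. It read 6.57, 6.07, 5.98, 6.0 and 6.07 in ACI rats, against 7.38, 7.67, 7.17, 8.20 and 7.96 in BN rats. There was no overlap, and the highest ACI value, in rat 1, stood apart from the other four. The means were 6.14 ± 0.245 in ACI and 7.68 ± 0.418 in BN, with a log2 fold change of -1.54 (SE 0.211, adjusted p = 0.00225), which is 2.90-fold higher in BN. Its chromosome 20 neighbours *Gstt1* and *Gstt2* were not called. *Gstt2* read 6.63, 6.70, 6.69, 7.07 and 6.5 in ACI rats and 5.18, 5.44, 5.64, 6.5 and 6.5 in BN rats. BN rats 1 to 3 lay below all ACI rats while BN rats 4 and 5 equalled the lowest ACI rat, and the log2 fold change of 0.87 (SE 0.283) had an adjusted p of 0.0889, which was 0.0497 without BN rat 4 and 0.0409 without BN rat 5. *Gstt1* had a log2 fold change of -0.38 (adjusted p = 0.323).

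Of the other transferases, *Gsto1*, the omega-class enzyme known for reducing dehydroascorbate, came closest to a call. It read 9.10, 8.97, 8.85, 8.83 and 8.70 in ACI rats, against 9.97, 10.21, 10.44, 9.44 and 9.03 in BN rats. Only BN rat 5 lay within the ACI range, and the log2 fold change was -0.93 (SE 0.26, adjusted p = 0.0521). Without BN rat 5 it was called, with an adjusted p of 0.00915. *Gstm2*, a mu-class enzyme abundant in skeletal muscle in humans, read 7.31, 7.67, 7.17, 7.22 and 6.0 in ACI rats and 5.14, 5.63, 6.34, 7.48 and 6.73 in BN rats. Its strains overlapped (log2 fold change 0.81, SE 0.486, adjusted p = 0.382, and -0.50 in rats 4 and 5 of each strain alone), and BN rats 4 and 5 again lay above BN rats 1 to 3. *Gstp1*, the pi-class enzyme known for its frequent silencing in human prostate cancer, averaged 12.00 ± 0.504 in ACI and 11.74 ± 0.272 in BN, with a log2 fold change of 0.26 (SE 0.25, adjusted p = 0.596). None of the 7 mu-class genes was called, and 2 of them were near background. *Gstcd* (log2 fold change 0.43, adjusted p = 0.0609), *Gstm4* (-0.63, 0.0972), *Gstm1* (-0.41, 0.388), *Gstz1* (0.23, 0.691), *Gstm5* (-0.15, 0.644), *Gstm7* (-0.13, 0.702) and *Gstk1* (0.13, 0.833) complete the measured transferases that were not called.

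**Figure D2:**
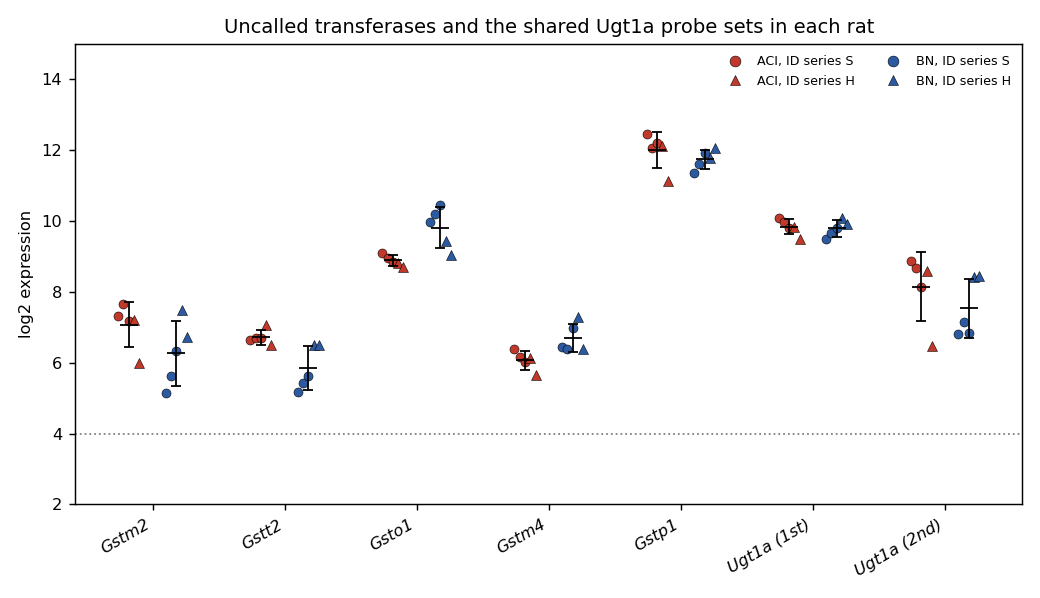
Log2 expression (vertical axis) of 5 glutathione S-transferases that were not called and of both probe sets shared by the *Ugt1a* genes in each rat, ACI left and BN right of each pair, with circles for animal ID series S, triangles for series H, bars for mean and SD (n = 5) and a dotted line at 4. In *Gstm2*, *Gstt2* and the 2nd *Ugt1a* probe set the triangles of BN (rats 4 and 5) lie above the circles of BN (rats 1 to 3).

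The 3 P450 genes that were higher in ACI belong to subfamilies 2T, 2J and 4F. *Cyp2t1* read 6.32, 6.06, 5.66, 6.32 and 5.51 in ACI rats, against 3.57, 3.80, 4.49, 3.67 and 3.22 in BN rats. Only 1 BN rat exceeded 4, whereas all ACI rats read above 5. The means were 5.97 ± 0.374 in ACI and 3.75 ± 0.466 in BN, with a log2 fold change of 2.22 (SE 0.261, adjusted p = 0.00109). Since 4 of 5 BN values lay under 4, no fold is given, and with values under 4 set to 4 the log2 fold change was 1.88. In the gene order of chromosome 1, *Cyp2t1* lies in a run of P450 genes with *Cyp2f4*, *Cyp2a2*, *Cyp2a1*, *Cyp2a3* and *Cyp2g1*, all of which were near background in both strains.

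*Cyp2j10* belongs to a subfamily whose human enzyme, CYP2J2, makes epoxides of arachidonic acid. It read 5.53, 5.40, 5.71, 5.68 and 5.88 in ACI rats, against 3.49, 3.88, 3.49, 3.04 and 4.09 in BN rats. The lowest ACI rat lay above the highest BN rat, and all but 1 BN rat read under 4. The log2 fold change was 2.04 (SE 0.194, adjusted p = 0.000409) between means of 5.64 ± 0.183 in ACI and 3.60 ± 0.405 in BN, and 1.62 with values under 4 set to 4. *Cyp2j4* and *Cyp2j3* lie close to it on chromosome 5. *Cyp2j4* overlapped between strains (6.96 ± 0.354 in ACI and 6.62 ± 0.21 in BN, log2 fold change 0.34, SE 0.18, adjusted p = 0.31), and *Cyp2j3* was near background.

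*Cyp4f17*, of the subfamily that hydroxylates fatty acids and eicosanoids at their tail end, showed a small difference close to background. It read 4.55, 4.63, 4.77, 4.59 and 4.52 in ACI rats, against 3.65, 3.98, 3.46, 4.42 and 3.97 in BN rats. The highest BN value, in rat 4, lay just below the lowest ACI value, and the log2 fold change was 0.72 (SE 0.166, adjusted p = 0.0249), or 0.53 with values under 4 set to 4. The call was lost on leaving out any of ACI rats 1 to 4 or BN rat 1 or 2, with adjusted p between 0.0516 and 0.0642. *Cyp4f6*, of the same subfamily, averaged 4.79 ± 0.0402 in ACI and 4.78 ± 0.365 in BN (log2 fold change 0.01, SE 0.16, adjusted p = 1.0), and *Cyp4f1*, *Cyp4f4* and *Cyp4f5* were near background.

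Among the 4 P450 genes that were higher in BN, *Cyp2e1* differed most. Its enzyme oxidises ethanol and other small molecules and is known from liver and fat. *Cyp2e1* read 7.44, 6.5, 5.09, 6.48 and 5.71 in ACI rats, against 8.66, 9.22, 8.31, 9.49 and 9.97 in BN rats. ACI rat 1 was the highest of its strain and BN rats 4 and 5 were the highest of theirs, and the strains did not overlap. Means were 6.24 ± 0.89 in ACI and 9.13 ± 0.659 in BN, with a log2 fold change of -2.89 (SE 0.483, adjusted p = 0.00578), which is 7.39-fold higher in BN. The mean of the adipocyte list was 10.76, 10.35, 9.66, 10.07 and 9.76 in ACI rats and 10.02, 10.52, 10.21, 11.11 and 11.05 in BN rats. ACI rat 1 and BN rats 4 and 5 were also the highest of their strains in that list, whose part in the *Cyp2e1* values was not tested.

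*Cyp4v3* is the rat relative of human CYP4V2, a fatty acid hydroxylase whose loss causes a crystalline retinal dystrophy. It read 7.44, 7.66, 7.48, 7.46 and 7.74 in ACI rats, against 10.01, 9.87, 10.21, 9.09 and 8.67 in BN rats. ACI values were tightly grouped (7.56 ± 0.135), and BN rats 4 and 5 lay below the other BN rats (9.57 ± 0.658 over all 5). The log2 fold change was -2.01 (SE 0.293, adjusted p = 0.00296), or 4.04-fold higher in BN. A second probe set of this gene stood at 2.23 on all 10 arrays.

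*Cyp4b1*, an enzyme of lung and other tissues outside the liver that acts on fatty acids and plant toxins, read 5.73, 4.56, 4.99, 4.73 and 4.80 in ACI rats, against 6.37, 6.95, 6.46, 6.78 and 6.28 in BN rats. ACI rat 1 was the nearest to the BN range without reaching it. The log2 fold change was -1.61 (SE 0.235, adjusted p = 0.003), which is 3.04-fold higher in BN (4.96 ± 0.456 in ACI and 6.57 ± 0.285 in BN). Its neighbours on chromosome 5, *Cyp4a1* and *Cyp4a3*, were near background.

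*Cyp2s1*, a P450 of epithelia that AHR ligands are known to induce, was called at the edge of detection. It read 2.65, 2.64, 2.64, 2.50 and 2.50 in ACI rats, against 3.92, 3.54, 3.39, 4.55 and 3.06 in BN rats. Only BN rat 4 read above 4, so no fold is given for the log2 difference of -1.11 (SE 0.251, adjusted p = 0.0231). Its call was lost on leaving out any 1 ACI rat or BN rat 1 (adjusted p between 0.0501 and 0.0615), and with values under 4 set to 4, where the difference was -0.11. *Cyp2u1*, a P450 known in humans for hydroxylating long-chain fatty acids, was measured in both strains without a call (7.24 ± 0.255 in ACI and 7.02 ± 0.347 in BN, log2 fold change 0.22, SE 0.188, adjusted p = 0.596).

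A probe set shared by *Cyp2d5* and *Cyp2d1* stands outside the 84 members because it names a pair of genes, but it differed between strains. It read 3.87, 4.01, 3.92, 4.40 and 4.70 in ACI rats, against 2.81, 2.81, 2.78, 2.78 and 2.23 in BN rats. All BN rats were near background and the ACI rats were at or just above it, so the difference (log2 fold change 1.5, SE 0.191, adjusted p = 0.0016) corresponds to at least 1.13-fold, the ACI mean set against a floor of 4. The 3 *Cyp2d* genes with probe sets of their own, *Cyp2d2*, *Cyp2d3* and *Cyp2d4*, were near background in both strains.

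Sulfotransferases were called in both directions. *Sult5a1*, whose substrates are little known, read 10.72, 10.56, 10.23, 10.59 and 10.22 in ACI rats, against 8.33, 8.68, 9.49, 8.23 and 8.25 in BN rats. BN rat 3 was the highest of its strain and still lay below every ACI rat. The means were 10.46 ± 0.226 in ACI and 8.60 ± 0.532 in BN, with a log2 fold change of 1.87 (SE 0.252, adjusted p = 0.00206), or 3.65-fold higher in ACI.

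*Sult1d1*, which in mouse sulfates dopamine and related amines, read 4.88, 6.03, 6.11, 6.22 and 6.30 in ACI rats, against 4.0, 3.89, 4.98, 4.72 and 3.49 in BN rats. Here ACI rat 1 stood below the other ACI rats and inside the BN range, which BN rat 3 topped at 4.98. The log2 fold change was 1.69 (SE 0.37, adjusted p = 0.0198), or 1.57 with values under 4 set to 4, and the 2-sided exact permutation test over all arrangements of 5 against 5 rats gave p = 0.0159. *Sult1b1* and the *Ugt2b* genes that follow it on chromosome 14 were near background. The call was lost on leaving out ACI rat 2, 3 or 4 or BN rat 1 or 2, with adjusted p between 0.0521 and 0.0558.

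*Sult1a1*, the phenol sulfotransferase that also accepts estrogens and catechol estrogens, had the weakest call. It read 9.93, 9.70, 9.16, 9.44 and 9.18 in ACI rats, against 10.28, 10.88, 10.45, 10.22 and 9.77 in BN rats. ACI rat 1 exceeded BN rat 5, and the other rats kept apart. The log2 fold change was -0.84 (SE 0.228, adjusted p = 0.0465), or 1.79-fold higher in BN, and the exact permutation p was 0.0159. It remained called in only 2 of the 10 comparisons that left out 1 rat, those without ACI rat 1 and without BN rat 5, and its adjusted p in the rest lay between 0.074 and 0.107. For the 11 members without overlap, the same exact test can only give p = 0.00794, the smallest that 5 against 5 rats allow. It therefore adds nothing to the absence of overlap. The exact p of 0.0159 for *Sult1a1* and *Sult1d1* is not adjusted for the number of tests. *Gsto1* and *Gstcd*, which were not called, had the same exact p.

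**Figure D3:**
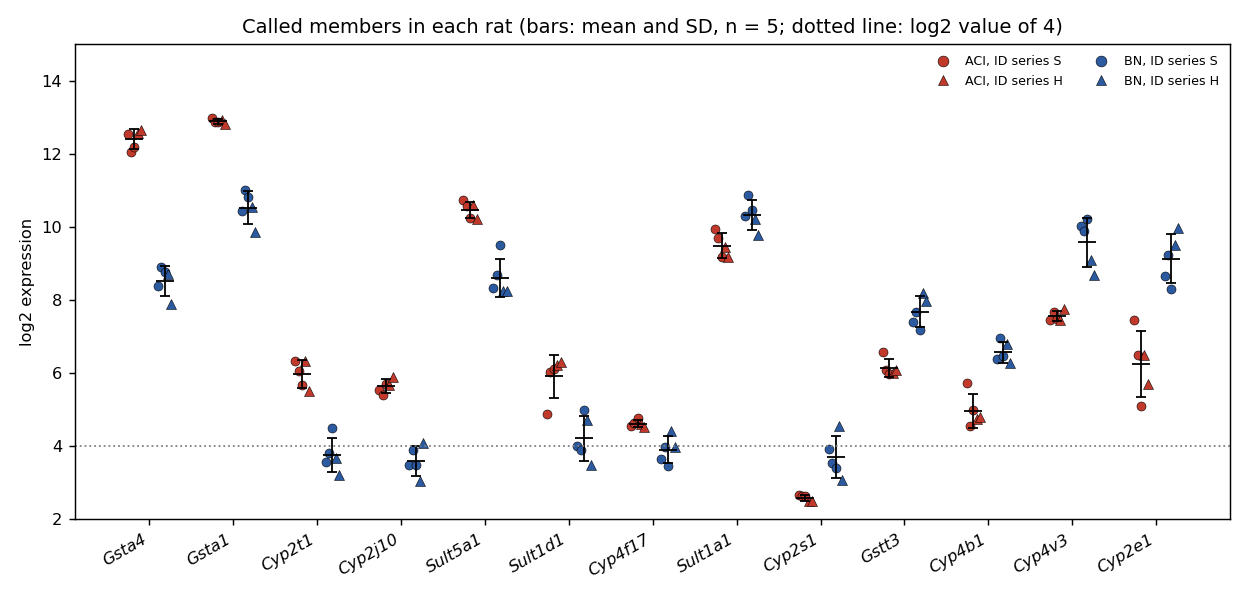
Log2 expression (vertical axis) of the 13 called members in each rat, ordered from higher in ACI on the left to higher in BN on the right, with ACI in red left of BN in blue, circles for animal ID series S and triangles for series H. Horizontal bars give the mean and SD (n = 5), and the dotted line marks the log2 value of 4, below which most BN values of *Cyp2t1* and *Cyp2j10* and all ACI values of *Cyp2s1* lie.

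Glucuronidation could be followed only through probe sets that the *Ugt1a* genes share, since these genes have a common 3′ end. Neither of the pair of probe sets, each annotated to 8 *Ugt1a* symbols, was called. The first read 10.08, 9.97, 9.81, 9.84 and 9.5 in ACI rats, against 9.48, 9.67, 9.81, 10.08 and 9.92 in BN rats, with a log2 fold change of 0.05 (SE 0.138, adjusted p = 0.999). The second read 8.87, 8.67, 8.15, 8.58 and 6.46 in ACI rats, against 6.80, 7.15, 6.83, 8.43 and 8.46 in BN rats. In the second, ACI rat 5 fell below all BN rats and BN rats 4 and 5 lay within the range of the ACI rats, and the difference of 0.61 had an SE of 0.563 (adjusted p = 0.596). None of the 8 *Ugt2* genes reached 4 on any array. *Ugt8*, the ceramide galactosyltransferase of myelin, also stayed under 4.

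Replicates were tighter in ACI than in BN. Over the 27 members with a mean of at least 4, the SD between rats had a median of 0.248 in ACI (0.0402 to 0.89) and 0.418 in BN (0.21 to 0.917), and it was larger in BN for 23 of the 27. The same count over all genes was not made, so the wider spread in BN is not shown to be particular to the members. The animal IDs in the titles begin with S in rats 1 to 3 of each strain and with H in rats 4 and 5. These letters are used here as ID series S and H. What they stand for is not given, and a letter may not mean the same in both strains. Within series S, the log2 fold change was 3.57 for *Gsta4*, 2.15 for *Gsta1* and -2.5 for *Cyp4v3*, and within series H it was 4.32, 2.68 and -1.28. The difference in strain effect between the series, tested in limma as an interaction term, was called for no member, against 2.76% of all probe sets called at the same adjusted threshold. For this term 10 members had an unadjusted p under 0.05, and the share of all probe sets at that level was not counted. Of the partner genes described further on, *Abcc4*, *Papss2* and *Ugdh* were called for that term (adjusted p = 0.00148, 0.0286 and 0.0311). All 13 called members kept their direction within both series. For the 11 of them without overlap between strains, no choice of rats could have given another direction, so this adds nothing there. With 2 rats per strain, no member was called in series H alone, against 100 of 31042 probe sets. There 16 members had an unadjusted p under 0.05, against 4358 probe sets. In series S *Cyp2e1* (-2.39, adjusted p = 0.107), *Cyp4b1* (-1.5, 0.0699), *Sult1a1* (-0.94, 0.108) and *Sult1d1* (1.38, 0.174) were not called.

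**Figure D4:**
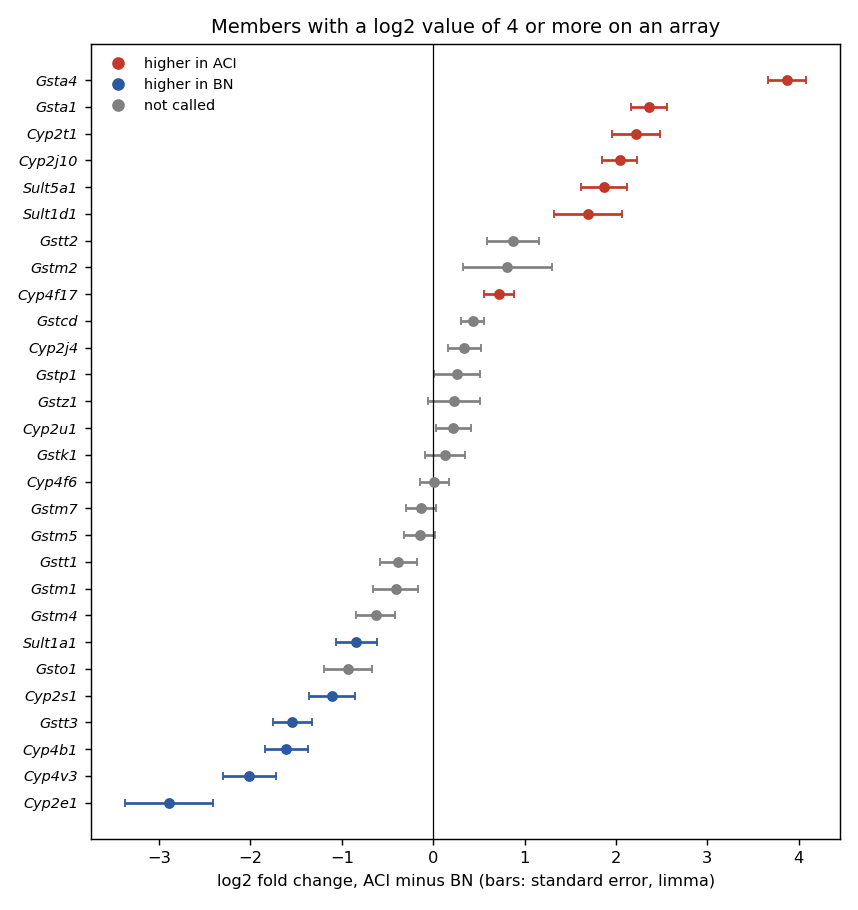
Points give the log2 fold change, ACI minus BN (horizontal axis), and bars its standard error for the 28 members that reached 4 on at least 1 array, sorted from *Gsta4* (3.87) to *Cyp2e1* (-2.89). Members that were not called, in grey, lie between -0.93 (*Gsto1*) and 0.87 (*Gstt2*).

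Genes that supply, control or follow these enzymes were described through lists of 99 genes, of which 94 were measured. Of these partner genes 25 were called (9 higher in ACI and 16 higher in BN) and 25 were near background in both strains. Their median log2 fold change was -0.06. Of all genes 17.4% were called (8.29% higher in ACI and 9.12% higher in BN), and of those with a mean of at least 4, 24.7%. No list was tested against these shares. Electron supply and heme synthesis, on which all P450 enzymes depend, had 3 of 9 genes called, all higher in ACI. *Cyb5b*, the cytochrome b5 of the outer mitochondrial membrane, averaged 8.54 ± 0.35 in ACI and 6.77 ± 0.325 in BN (log2 fold change 1.77, SE 0.208, adjusted p = 0.00111). *Alas1* and *Fech*, which encode the first and the last enzyme of heme synthesis, had log2 fold changes of 1.16 (adjusted p = 0.00424) and 0.91 (adjusted p = 0.0121). *Por*, the P450 reductase, was not called (-0.13, SE 0.48, adjusted p = 1.0). It read 9.19, 8.69, 8.19, 8.72 and 8.5 in ACI rats and 7.74, 8.24, 8.16, 9.88 and 9.94 in BN rats, so that BN rats 4 and 5 lay above, and BN rats 1 and 3 below, all ACI rats.

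Of 14 receptors and related regulators, 9 were near background and only *Ahr* was called. It read 4.10, 4.05, 3.83, 3.77 and 3.31 in ACI rats, against 2.23, 2.55, 2.23, 2.80 and 3.44 in BN rats, values at or under background. The log2 difference was 1.16 (SE 0.258, adjusted p = 0.0211, called in 4 of 10 comparisons with 1 rat left out). It was 0.03 and not called with values under 4 set to 4, and it was -0.05 on the probe set that represents *Ahr* when those whose ID marks possible matches to several transcripts are left out. *Nfe2l2* averaged 10.68 ± 0.225 in ACI and 10.54 ± 0.181 in BN (log2 fold change 0.14, adjusted p = 0.596). *Esr1*, the estrogen receptor, read 2.23, the lowest value of the data, in every rat of both strains on its probe set. A value at this floor does not show whether the gene was expressed.

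Among 27 other enzymes of the first phase of metabolism, 3 were higher in ACI and 8 were higher in BN. *Ephx2*, the soluble epoxide hydrolase that opens the epoxides made by P450 epoxygenases, had the largest difference in these lists. It read 3.13, 2.79, 2.79, 2.77 and 2.89 in ACI rats, all near background, against 7.41, 8.08, 7.81, 8.01 and 7.73 in BN rats. It was at least 14-fold higher in BN (log2 fold change -4.93, SE 0.133, adjusted p = 3.56e-07). The quinone reductase *Nqo2* (log2 fold change -2.57), the reductase *Akr1b8* (-2.0), the flavin monooxygenases *Fmo1* (-1.96) and *Fmo2* (-1.74), the amine oxidase *Maob* (-1.73) and the lactonases *Pon3* (-1.18) and *Pon2* (-1.13) were also higher in BN, with adjusted p between 0.00019 and 0.0039. The aldehyde dehydrogenase *Aldh2* (1.31), the amine oxidase *Maoa* (1.11) and the alcohol dehydrogenase *Adh5* (0.64) were higher in ACI, with adjusted p between 0.00299 and 0.0161.

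Glutathione supply and the membrane-bound transferases had 4 of 15 genes called, all higher in BN. They were the cystine transporter subunit *Slc7a11* (near background in ACI, 2.38 to 2.58, and 4.48 to 6.54 in BN, at least 2.34-fold, adjusted p = 0.00238, or 0.0908 with values under 4 set to 4), *Alox5ap*, which serves leukotriene synthesis (log2 fold change -1.87), the microsomal transferase *Mgst2* (-1.48) and the glutamyltransferase *Ggt5* (-0.92). In the macrophage, T cell and B cell lists, which hold none of these genes, the levels in BN lay above those in ACI, and their part in these differences was not tested. For UDP-glucuronic acid, *Ugp2* was higher in ACI (0.39, adjusted p = 0.0442) and the glucuronidase *Gusb* higher in BN (-0.47, adjusted p = 0.0201). For sulfate, the carrier *Slc35b2* of the sulfate donor was higher in ACI (0.87, adjusted p = 0.003), and the protein tyrosine sulfotransferases *Tpst1* (-0.95) and *Tpst2* (-0.58) were higher in BN. With 1 rat left out, *Ugp2* was called in 1 of 10 comparisons (without BN rat 2), *Ggt5* in 2 (without ACI rat 5 or BN rat 5), *Tpst2* in 4 and *Gusb* in 8, with adjusted p of up to 0.1, 0.0814, 0.0626 and 0.0541. *Nnmt*, which methylates nicotinamide, was the only 1 of 9 other conjugating enzymes called (-1.39, adjusted p = 0.00305). None of 8 efflux transporters was called. *Abcg2*, an exporter of sulfate conjugates and a concentrator of compounds into milk, averaged 11.03 ± 0.263 in ACI and 8.98 ± 1.62 in BN (log2 fold change 2.05, SE 0.715, adjusted p = 0.109).

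**Figure D5:**
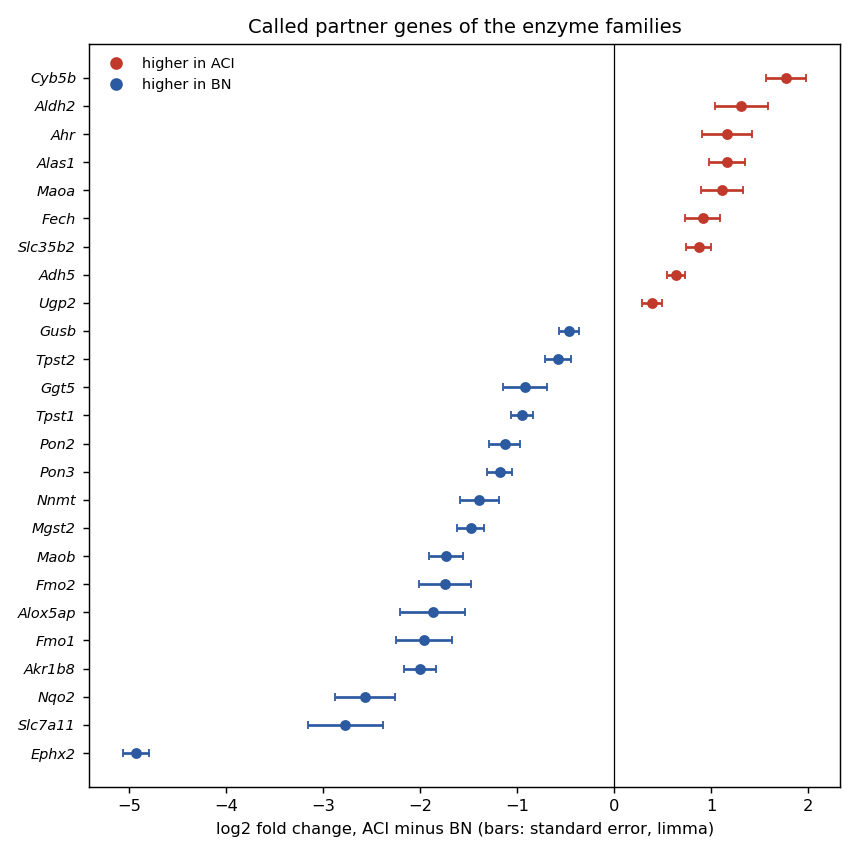
Points give the log2 fold change, ACI minus BN (horizontal axis), and bars its standard error for the 25 called partner genes, with 9 higher in ACI (red) and 16 higher in BN (blue). *Ephx2* at -4.93 lies farthest from 0 and *Cyb5b* at 1.77 is the highest on the ACI side.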

How the data were processed

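Expression in 5 ACI and 5 BN glands was measured on Affymetrix rat arrays, 1 array per rat. Per the submitters' processing notes, the deposited log2 values were made by the authors with GCRMA 2.18.1, a method that subtracts background by probe sequence and leaves weak probe sets at nearly constant low values. The values were used as deposited, so differences near the lowest value (2.23, held by 30.6% to 33.3% of probe sets on each array) are not measures of expression. Array medians lay between 3.35 and 3.53. Of 31099 probe sets, 57 controls were left out. Of the 31042 tested, 20826 carry 1 symbol in the platform annotation, of which 20758 were matched by gene ID to RefSeq, and 8 probe sets that name several genes of these families were kept out of the members. Of the 92 member probe sets, 1 (*Sult1e1*) was not matched by gene ID and keeps its platform symbol.

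ACI and BN were compared with limma 3.58.1 (R 4.3.3, lmFit and eBayes, strain as the only term), with Benjamini-Hochberg adjustment over all tested probe sets and a threshold of 0.05. The number of arrays (5 per strain) limits the precision. Where a strain read under 4 on all arrays, a fold is given as a minimum against a floor of 4. The scripts were tested on simulated data. Values of different probe sets do not rank amounts of RNA, and the highest mean served only to choose which genes to name. All 13 called members rest on probe sets whose ID marks no shared transcripts, but cross-hybridization within these families was not tested. Named are every called member, the 5 with the highest mean, the 3 uncalled members per class with the largest difference among those with a mean of at least 4, and the called genes of each partner list. *Gstcd*, *Gstm4*, *Cyp4f5* and other genes were named after their values were seen. The members and lists were chosen with earlier results of these data known. Alternatives were blocks for replicate number and ID series, either series alone, leaving out single rats or BN rats 4 and 5, low-value filter or floor, quantile normalization or centring, the Student test of the methods, trended variance, array weights and other probe set choices. BN samples carry an extraction text written for ACI rats although their strain is given as Brown Norway. The labels state a sex for the ACI samples only, and the methods name females of both strains.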

Additional observations from a re-analysis of the deposited data

Results flagged for a closer look

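In 39 groups of 5 rats (the named members in each strain, where a rat of the strain read at least 4), 3 members had 1 rat far from the other four, by a gap to the nearest value that was more than 0.71 of the range. Chance marks about 1 in 20 such groups. All were in ACI rat 1. *Gstt3* read 6.57 there, against 5.98 to 6.07 in the other ACI rats, and *Sult1d1* read 4.88, against 6.03 to 6.30. *Cyp4f6* read 4.86, against 4.77 in each of the other ACI rats, a gap within a very narrow spread. BN rats 1 and 4 both read 4.45 for *Cyp4f6*. Whether such repeated values mark a floor of this probe set above 4 was not tested. ACI rat 1 also had the highest adipocyte list (10.76) and the lowest muscle list (6.93) of the ACI rats. Without this rat *Gstt3* and *Sult1d1* remained called in the same direction.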

How the results depend on the processing

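No called member changed direction in any alternative, and *Gsta4*, *Gsta1*, *Gstt3*, *Cyp2e1*, *Cyp2j10*, *Cyp2t1*, *Cyp4b1*, *Cyp4v3* and *Sult5a1* kept their call without each single rat, whereas *Sult1d1* (5 of 10), *Cyp2s1* and *Cyp4f17* (4 of 10 each) and *Sult1a1* (2 of 10) did not. For the 11 called members without overlap between strains, leaving out rats could not change the direction. Replicate numbers did not pair the rats (same-number deviations correlated at 0.094, -0.109, -0.073, 0.201 and -0.202, and only number 4 correlated best with itself). With the replicate number as a block, 5 members were higher in ACI and 3 in BN (against 7 and 6), 4 P450 genes and 1 sulfotransferase were called (against 7 and 3), and 5 partner genes were higher in ACI (against 9). Series H alone gave 0 calls for all of these counts, with 16 members at an unadjusted p under 0.05, against 4358 of 31042 probe sets. Series S alone called 1 sulfotransferase and 5 glutathione S-transferases. Glutathione S-transferase calls (3) were also 5 with the ID series as a block, without BN rats 4 and 5, with centring and with the mean over probe sets, 6 with the filter and 7 with array weights. Leaving out 1 rat gave 3 to 5 glutathione S-transferases and 1 to 3 sulfotransferases. The added transferases were *Gsto1* and *Gstt2* in the series block, in series S and without BN rats 4 and 5. Partner genes higher in BN (16) numbered 25 with array weights. Over all probe sets 3930 were called, against 1926 with the replicate block, 100 in series H, 6350 without BN rats 4 and 5, 8397 with array weights and, without ACI rat 4, 2598. Some values changed sign. *Cyp2u1* (0.22) was -0.09 in series S and -0.02 without BN rats 4 and 5. *Cyp4f6* (0.01) was -0.10 in series S, -0.11 without BN rats 4 and 5, -0.02 with centring, -0.04 with array weights and -0.01 (ACI rat 1) and -0.08 (BN rat 1 or BN rat 4) on leaving out 1 rat, over a range from -0.08 to 0.14. In series H, *Gstm2* (0.81) was -0.50 and *Gstp1* (0.26) was -0.28. *Ahr* (1.16, called) was -0.05 with probe sets of possible shared transcripts left out. The causes were not tested.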
